A study of Mus musculus with 12 samples.

Results

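Somatostatin loss was examined in XX liver, with 3 somatostatin knockout females set against 3 wild-type females. These 6 arrays are part of a series of 12, and they were chosen as the arrays on which the probe set of the Y-linked gene Eif2s3y read below 6 on the log2 scale (3.06 to 3.73 on these 6, 9.32 to 9.77 on the other 6). The wild types carried the genotype sst +/+ and the knockouts sst -/-, both on C57BL/6 and both aged 16 weeks. Each array held liver RNA of 1 mouse, and the remaining 6 arrays held XY mice, 3 of each genotype. How the allele was made, and in which cells of the body the gene was lost, was not stated in the labels. All differences below are knockout minus wild type in XX liver on the log2 scale of the deposited RMA values, with the standard error of a limma fit to all 12 arrays and n = 3 per group. A gene was called when its Benjamini-Hochberg adjusted p was below 0.05 over all 12158 tested genes.

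Somatostatin is a peptide hormone that the hypothalamus releases to hold back the secretion of growth hormone by the pituitary. In rodents males secrete growth hormone in sharp pulses with low troughs, whereas in females the hormone is present more continuously. Hepatocytes read this pattern through the growth hormone receptor, JAK2 and STAT5B, and through repressors such as BCL6 and CUX2. Many liver enzymes for steroids, drugs and fatty acids are therefore made mainly in one sex, among them members of the Cyp2, Cyp3 and Cyp4 families, sulfotransferases and organic anion transporters.

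The arrays of the wild-type group were not of one quality. Control probe sets at the 3′ and 5′ ends of Gapdh come apart when RNA is degraded, and their difference was 0.95, 0.46 and −0.07 in wild types 1, 2 and 3, and 0.01, 0.03 and 0.17 in knockouts 1, 2 and 3. The beta-actin difference was 2.59, 1.92 and 1.06 in the wild types and 0.82, 0.84 and 1.41 in the knockouts. Wild types 1 and 2 thus stood above the other arrays on both measures, and knockout 3 was the highest knockout on both. Differences are therefore also given against wild type 3 alone. That array is 1 of the 3 controls as well, so the second value is no independent repeat of the first. Albumin, transthyretin and the other 4 tested hepatocyte markers read between 13.98 and 14.79 on average in wild type, and none of the 6 passed. Array medians lay between 4.94 and 4.97, and the files used hold no detection calls. Where the dimmer group averaged below the array median, a difference is therefore only a lower bound.

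**Figure D1:**
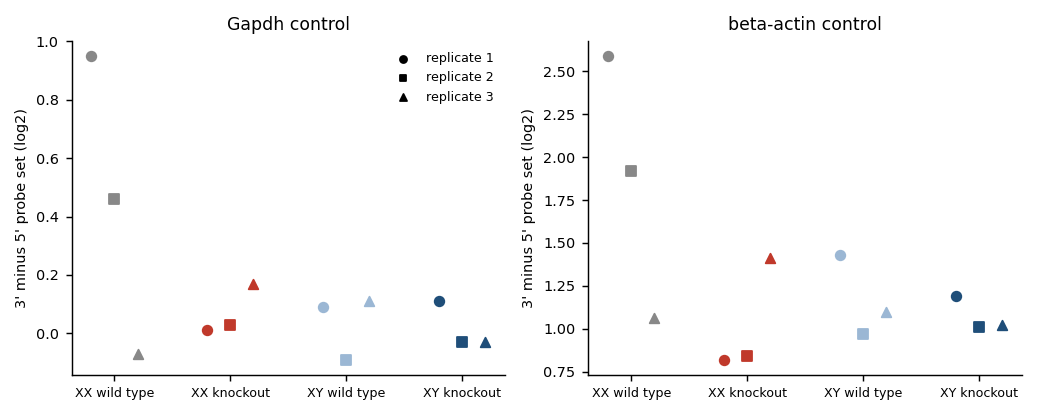
The 3′ minus the 5′ probe set value of the Gapdh (left) and beta-actin (right) controls on the log2 scale, 1 point per array, with shapes for replicates 1, 2 and 3 of each group. Wild-type XX arrays 1 and 2 (0.95 and 0.46 for Gapdh, 2.59 and 1.92 for beta-actin) lie above the other 10 arrays in both panels.

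The knockout changed the Cyp2b genes of XX liver unequally. Cyp2b13 and Cyp2b9 are neighbouring cytochrome P450 genes on chromosome 7 that are both made mainly in females. Cyp2b13 fell 19.2-fold in the knockouts, and Cyp2b9 did not pass. The RefSeq promoter windows of the pair (GRCm38.p6, plus strand, chr7:26061245-26061544 for Cyp2b13 and chr7:26173159-26173458 for Cyp2b9, 250 bases before to 50 after each start) are shown because so little separates them. The capitals mark the bases at which they differ.
Cyp2b13: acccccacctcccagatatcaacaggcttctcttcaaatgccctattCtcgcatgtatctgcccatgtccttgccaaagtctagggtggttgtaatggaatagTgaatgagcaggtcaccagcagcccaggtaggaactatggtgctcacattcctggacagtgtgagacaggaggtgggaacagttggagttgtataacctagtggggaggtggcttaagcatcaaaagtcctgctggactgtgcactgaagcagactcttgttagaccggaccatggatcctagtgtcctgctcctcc
Cyp2b9: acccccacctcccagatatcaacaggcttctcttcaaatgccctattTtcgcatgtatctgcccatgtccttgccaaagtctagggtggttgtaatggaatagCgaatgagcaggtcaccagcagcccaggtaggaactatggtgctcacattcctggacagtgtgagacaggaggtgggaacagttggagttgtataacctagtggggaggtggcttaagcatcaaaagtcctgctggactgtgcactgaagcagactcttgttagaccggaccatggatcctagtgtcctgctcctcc

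The windows shared 298 of 300 bases (99.3%). Counted from 1 at the 5′ end of the window, with the base of Cyp2b13 first, the differences were C48T and T104C, which lie 203 and 147 bases before the start. What lies outside these windows was not compared. Cyp2b13 read 12.01, 11.73 and 11.90 in wild types 1, 2 and 3 and 7.71, 8.66 and 6.49 in knockouts 1, 2 and 3. All 3 knockouts were far below the lowest wild type, and they spread more widely (SD 1.09) than the wild types did (SD 0.14). The difference was −4.26 ± 0.48 (adjusted p = 0.00541), and −4.28 against wild type 3 alone. Cyp2b9 read 11.60, 11.41 and 11.75 in the wild types and 12.29, 12.27 and 11.49 in the knockouts. Its groups overlapped, since knockout 3 lay within the wild-type range, and the difference was 0.43 ± 0.26 (adjusted p = 0.407) and 0.26 against wild type 3. Cyp2b10, the drug-inducible member of the family, read 8.77, 10.27 and 9.80 in the wild types and 10.28, 10.90 and 9.21 in the knockouts, with no call (0.52 ± 0.51, adjusted p = 0.645, 0.33 against wild type 3). Each of Cyp2b13 and Cyp2b9 was measured by 1 probe set, and transcripts of such close relatives can bind to one another's probes.

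In XY liver both of these genes were higher in the knockouts than in the wild types, Cyp2b13 by 5.00 and Cyp2b9 by 7.69. The XY wild types averaged below the array median for Cyp2b9, so its value is a lower bound. The knockout effect on Cyp2b13 thus had opposite signs in the XX and XY groups, and the difference between the effects, taken as XX minus XY, was −9.26 (limma interaction, adjusted p = 1.36e-05). This interaction passed for 100 of the tested genes (0.823%), and 2 of the 100 were called in both sexes with opposite signs.

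The largest rises in XX knockout liver were those of a pair of Cyp3a genes, Cyp3a16 and Cyp3a44, which encode female-biased steroid and drug oxidases and lie on chromosome 5. Cyp3a16 rose 26.1-fold and Cyp3a44 rose 6.35-fold. Their promoter windows (GRCm38.p6, minus strand, chr5:145469674-145469973 and chr5:145805825-145806124) are shown because the genes moved together. The capitals mark TATAAA and ATCAAT, the core of HNF6 sites, wherever either was found on either strand.
Cyp3a16: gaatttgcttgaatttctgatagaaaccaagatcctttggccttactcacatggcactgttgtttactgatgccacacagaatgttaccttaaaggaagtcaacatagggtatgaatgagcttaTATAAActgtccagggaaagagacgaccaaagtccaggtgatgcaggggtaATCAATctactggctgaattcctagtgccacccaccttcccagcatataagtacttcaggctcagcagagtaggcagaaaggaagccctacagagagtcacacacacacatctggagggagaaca
Cyp3a44: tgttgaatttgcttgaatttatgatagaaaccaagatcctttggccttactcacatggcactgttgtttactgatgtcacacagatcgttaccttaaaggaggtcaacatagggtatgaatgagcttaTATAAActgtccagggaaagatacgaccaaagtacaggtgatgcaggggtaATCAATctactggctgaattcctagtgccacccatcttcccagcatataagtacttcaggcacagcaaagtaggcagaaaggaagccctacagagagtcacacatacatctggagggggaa

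Aligned, these windows shared 284 of 304 columns (93.4%). TATAAA began 126 bases before the start of Cyp3a16 and 122 before that of Cyp3a44, and ATCAAT 75 and 71 before, so the matches kept their spacing and did not overlap. Of 32851 RefSeq promoter windows of this length, 13.6% held TATAAA and 7.54% held ATCAAT on either strand. The STAT motif TTCNNNGAA, found in 8.3% of windows, was absent from these letters of Cyp3a16, Cyp3a44, Cyp2b13, Cyp2b9, Slco1a1 and Cyp2d9 alike.

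Cyp3a16 read 6.86, 4.85 and 9.16 in wild types 1, 2 and 3 and 11.68, 11.85 and 11.47 in the knockouts. The knockouts lay close together, while the wild types were spread over a wide range with wild type 3 the highest. The difference was 4.71 ± 0.76 (adjusted p = 0.0115), but 2.50 against wild type 3, so its size rests on wild types 1 and 2. Cyp3a44 read 8.76, 7.66 and 8.82 in the wild types and 11.27, 11.19 and 10.78 in the knockouts, again without overlap. Its difference was 2.67 ± 0.31 (adjusted p = 0.00541), and 2.26 against wild type 3. Cyp3a11, the main hepatic Cyp3a gene, did not pass at 14.27 ± 0.02 (SD, n = 3) in wild type and 14.21 ± 0.06 in knockout (−0.04 against wild type 3). Of the 5 tested Cyp3 genes 2 rose and 3 did not pass. In XY liver Cyp3a16 differed by 6.93, a lower bound since the XY wild types were dim, and Cyp3a44 by 3.09, and neither interaction passed (adjusted p = 0.343 and 0.682).

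**Figure D2:**
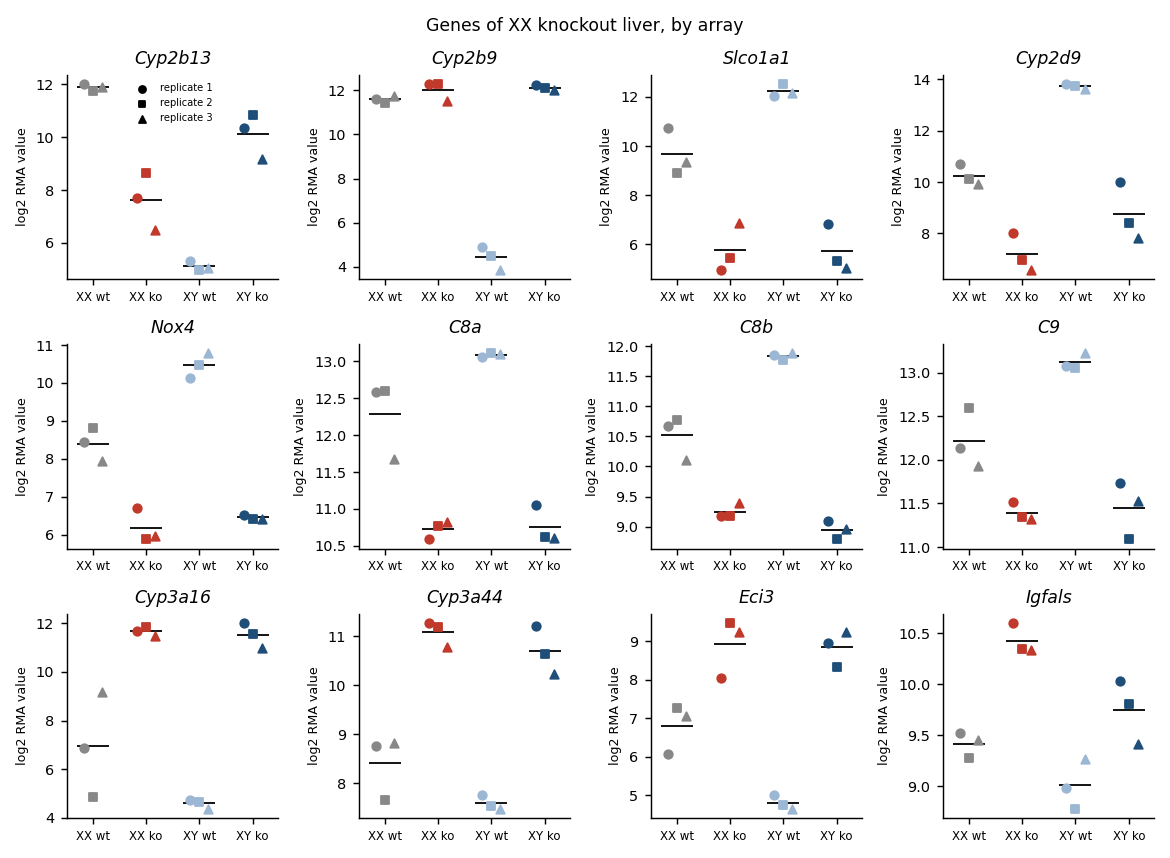
Log2 RMA values of 12 genes on all 12 arrays, in wild-type (wt) and knockout (ko) mice with XX or XY chromosomes, with 1 point per array, shapes for replicates 1, 2 and 3, and a line at each group mean. The vertical axes differ between panels and do not start at 0. In the XX groups the knockouts do not overlap the wild types for any of the genes shown except Cyp2b9, and Cyp2b13 is low in XX knockouts (6.49 to 8.66) but higher in XY knockouts than in XY wild types.

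In all, 362 genes were called in XX liver (2.98% of those tested), of which 302 rose (2.48%) and 60 fell (0.494%). Groups did not overlap for 2414 genes (19.9%). Against wild type 3 alone all 362 kept their sign. The median of the 302 raised genes was 0.73 against all 3 wild types and 0.68 against wild type 3, and that of the 60 lowered genes was −0.70 and −0.64, beside 0.01 and 0.03 over all tested genes. A limma fit with wild type 3 as the only control called 1 gene (0.00823%), Pabpn1, a poly(A)-binding protein gene that was not among the 362, and 1214 genes had an unadjusted p under 0.05. That fit assumes that the lone wild type varies like the other groups. At least 1 log2 above wild type 3 lay 94 genes (0.773%), and at least 1 below lay 60 (0.494%).

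The count of calls depended on single arrays. It was 179, 155 and 276 without wild type 1, 2 or 3, and 104, 134 and 379 without knockout 1, 2 or 3. In the full fit and all 6 of these fits, 74 genes were called (0.609%), 62 raised and 12 lowered. With the mean of both 3′ to 5′ differences as a covariate no gene passed, and 1416 had an unadjusted p under 0.05. The medians of the raised and lowered genes were then 0.69 and −0.67. A limma fit to the 6 XX arrays alone likewise called 0 genes, with 1632 at an unadjusted p under 0.05.

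**Figure D3:**
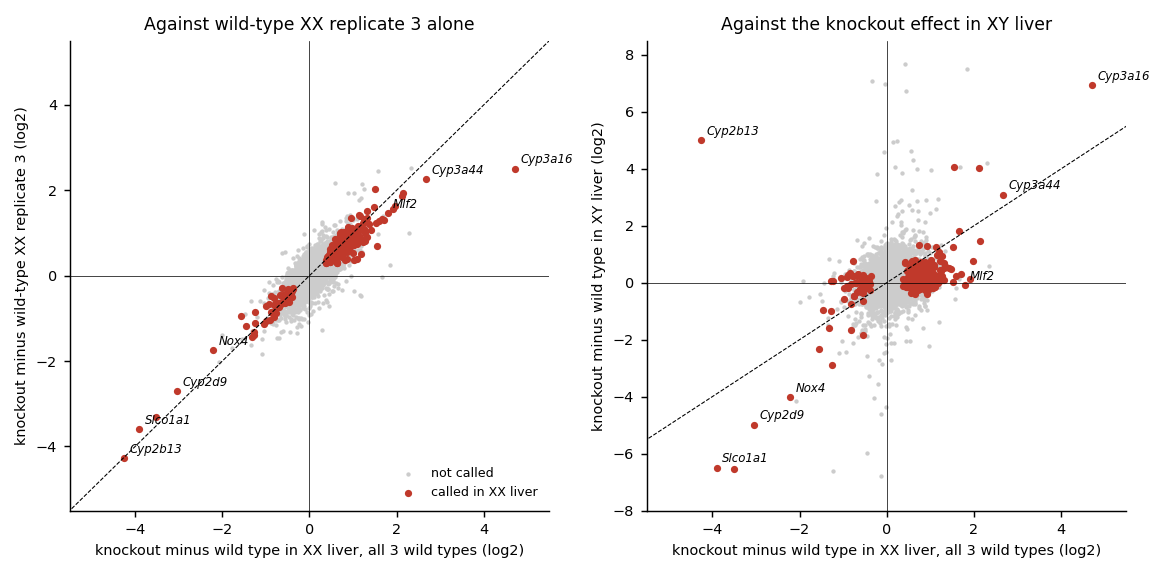
Knockout minus wild type in XX liver against all 3 wild types (horizontal axis, log2) set against the difference from wild type 3 alone (left) and against the knockout effect in XY liver (right), 1 point per tested gene, with the 362 called genes in red and a dashed line of equal values. On the left all called genes keep their sign, with Cyp3a16 far below the line (4.71 and 2.50). On the right Cyp2b13 lies apart at −4.26 in XX and 5.00 in XY liver, and Mlf2 (1.79 and −0.09) is among many raised genes near 0 in XY liver.

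Transporter and hydroxylase genes of the male-biased list were among the largest falls. Slco1a1 encodes an uptake transporter for bile salts and steroid conjugates. It read 10.72, 8.90 and 9.35 in the wild types and 4.97, 5.44 and 6.86 in the knockouts. No knockout reached a wild type, although wild type 1 was the highest and knockout 3 the highest of its group. It fell 14.9-fold (−3.90 ± 0.57, adjusted p = 0.00941, −3.60 against wild type 3), and a second, dimmer probe set differed by −2.91. Cyp2d9, a testosterone hydroxylase, read 10.69, 10.11 and 9.91 in the wild types and 8.03, 6.97 and 6.59 in the knockouts. These groups also stood apart, and Cyp2d9 fell 8.22-fold (−3.04 ± 0.48, adjusted p = 0.0115, −2.71 against wild type 3). Serpina4-ps1, a pseudogene, read 10.79, 8.12 and 9.14 against 4.99, 5.08 and 7.44. Its difference of −3.51 ± 0.75 (adjusted p = 0.0304, −3.30 against wild type 3) was lost as a call without wild type 1 or 3 or without knockout 1 or 2, where it ran from −2.79 to −3.61. Its other probe sets differed by −3.31 and −3.32, and the mean over all 3 just missed the threshold (−3.38, adjusted p = 0.0532). In XY liver Slco1a1 differed by −6.5, Cyp2d9 by −4.98 and Serpina4-ps1 by −6.54. None of these interactions passed (adjusted p = 0.157, 0.205 and 0.2).

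Nox4, an NADPH oxidase that makes hydrogen peroxide, read 8.44, 8.81 and 7.93 in the wild types and 6.71, 5.88 and 5.96 in the knockouts. The gap between the groups was wider than the range within either, and Nox4 fell by 2.21 ± 0.26 on the log2 scale (adjusted p = 0.00541), with −1.75 against wild type 3 and −1.61 on its dimmer probe set. Nudt7, a peroxisomal enzyme that cleaves coenzyme A, read 12.25, 12.18 and 12.16 against 11.70, 11.66 and 11.57. Its fall was small beside the others but exceeded the very narrow spread (−0.55 ± 0.10, adjusted p = 0.0166, −0.51 against wild type 3), and it missed the threshold without knockout 2 (−0.56, adjusted p = 0.051) and with the mean over its probe sets (−0.40, adjusted p = 0.0511). In XY liver Nox4 differed by −4.01 and Nudt7 by −1.85. Both interactions passed, at 1.80 for Nox4 (adjusted p = 0.0452) and 1.30 for Nudt7 (adjusted p = 0.000652), so the falls were smaller in XX than in XY liver.

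Of the list of 18 tested male-biased liver genes 3 fell, Slco1a1, Cyp2d9 and Nudt7, 0 rose and 15 did not pass. In all 17 of the 18 were lower in the knockouts (94.4%, beside 48.7% of all tested genes), and 12 of the 18 were lower against wild type 3. The list median was −0.18 in XX liver (−0.17 against wild type 3) and −3.20 in XY liver, where 17 of the 18 fell. Some members were already below the array median in wild-type XX liver, where a fall could not be measured. One of them was Cyp4a12a, a fatty acid hydroxylase, at 4.18, 3.66 and 4.70 in the wild types and 4.04, 4.14 and 4.02 in the knockouts. Hsd3b5, a steroid reductase, read 6.48, 4.43 and 5.27 against 3.87, 4.14 and 4.48. The groups of Hsd3b5 overlapped (−1.23 ± 0.68, adjusted p = 0.366, −1.11 against wild type 3), and since the knockouts alone averaged below the array median the difference is a lower bound. Others were well above it and did not pass, such as Cyp7b1, an oxysterol hydroxylase (10.20 in wild type and 10.08 in knockout on average, −0.19 against wild type 3), and Gstp1, a glutathione transferase (13.75 and 13.70, −0.04 against wild type 3).

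Of the list of 21 tested female-biased liver genes, 18 did not pass, while Cyp2b13 fell and the 2 Cyp3a genes rose. The list median was 0.25 both against all wild types and against wild type 3, and 4.06 in XY liver, where 17 rose. Slc22a26, an organic anion transporter, was nearly level at 10.80, 10.70 and 10.80 in the wild types and 10.60, 10.84 and 10.70 in the knockouts (−0.05 ± 0.12, −0.08 against wild type 3). The sulfotransferase Sult3a1 read 11.34, 10.56 and 10.93 against 9.87, 10.87 and 11.09, and its groups overlapped too (−0.33 ± 0.34, −0.32 against wild type 3). The peroxisomal oxidase Hao2 read 9.82, 9.54 and 10.64 against 10.24, 10.73 and 10.39. Its difference was 0.45 ± 0.24 against all wild types and −0.18 against wild type 3 (adjusted p = 0.34 for the former).

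For several members of that list wild type 3 lay nearer to the knockouts than wild types 1 and 2 did. Sult2a2, which sulfates bile acids and steroids, read 10.32, 11.41 and 13.27 in wild types 1, 2 and 3 and 13.68, 13.50 and 13.38 in the knockouts. Its difference was 1.85 ± 0.67 (adjusted p = 0.163) and only 0.25 against wild type 3; it passed without wild type 3 (2.66, adjusted p = 0.0395). Cyp17a1, a steroid hydroxylase and lyase, read 9.44, 7.34 and 10.34 against 11.29, 11.87 and 10.85, a difference of 2.29 ± 0.61 (adjusted p = 0.0712) and 1.0 against wild type 3. Serpina6, which encodes corticosteroid-binding globulin, read 12.28, 12.04 and 12.91 against 13.25, 13.06 and 13.29. The pattern was the same, with 0.79 ± 0.24 (adjusted p = 0.107), 0.29 against wild type 3, and a call without wild type 3 (1.04, adjusted p = 0.0443). Wild types 1 and 2 both lay below wild type 3 for 11 of the 21 list genes (52.4%), beside 23.7% of all tested genes. This was not particular to the list. Over the 28 gene lists the share ran from 4.76% (acute phase) to 80.0% (Cyp3), with 77.4% for the respiratory chain. Wild types 1 and 2 are the arrays with the high 3′ to 5′ differences. With those differences as a covariate the values were 0.90 for Sult2a2 and 0.54 for Serpina6.

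**Figure D4:**
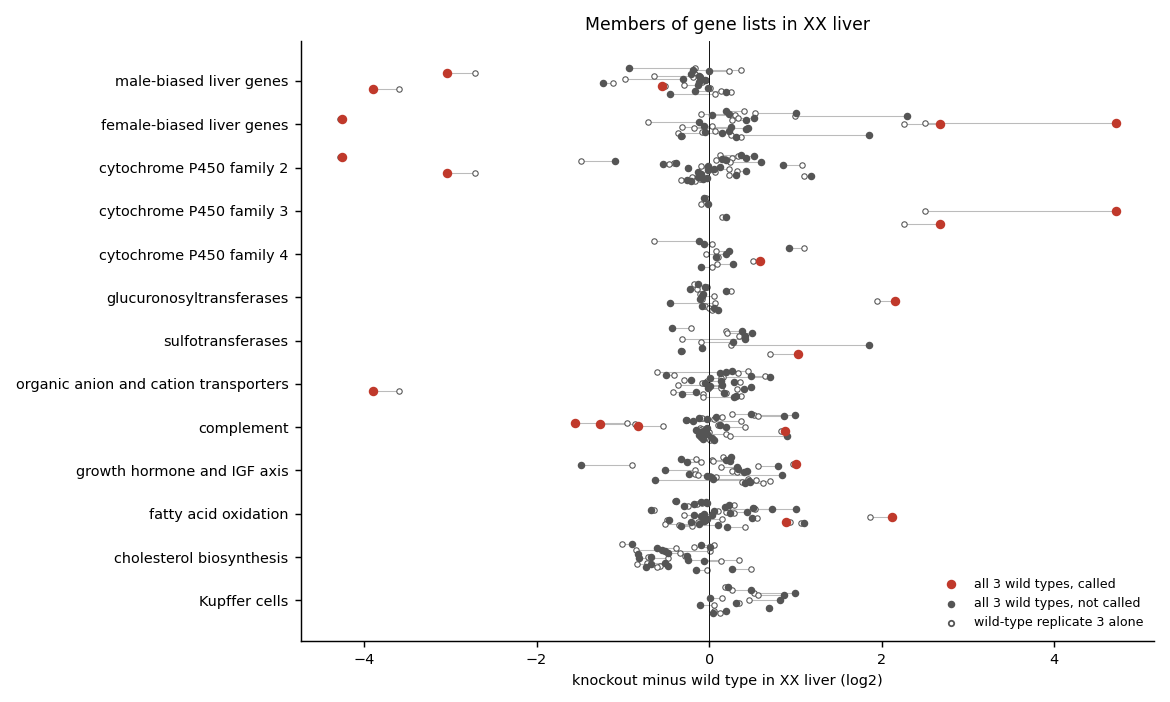
Knockout minus wild type in XX liver (horizontal axis, log2) for each tested member of 13 gene lists, with filled points for the difference from all 3 wild types (red where called) and open points for the difference from wild type 3 alone, joined by a line for each gene. Most members lie near 0, the members called in the male-biased list are all below 0, and the 19 cholesterol biosynthesis genes are grey with a median of −0.51.

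C8a, C8b and C9, which belong to the complement attack complex, fell in XX knockout liver. The first pair encode the alpha and beta chains of C8, and the last encodes the protein that polymerises into the pore. C8a read 12.59, 12.60 and 11.68 in wild types 1, 2 and 3 and 10.59, 10.77 and 10.82 in the knockouts. The knockouts were tightly grouped below all wild types, of which wild type 3 was the nearest. The difference was −1.56 ± 0.22 (adjusted p = 0.009), and −0.95 against wild type 3. C8b read 10.67, 10.77 and 10.11 against 9.17, 9.18 and 9.40, with the same order of arrays and a difference of −1.26 ± 0.16 (adjusted p = 0.00649, −0.86 against wild type 3). C9 read 12.13, 12.59 and 11.93 against 11.52, 11.34 and 11.32. Its fall was the smallest of these (−0.82 ± 0.19, adjusted p = 0.0377, −0.53 against wild type 3). The call of C9 was lost without wild type 1 or 2 or without any 1 of the knockouts, with differences from −0.63 to −0.88.

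C8g, which encodes the remaining chain of C8, read 13.03 in wild type and 13.16 in knockout on average and did not pass, nor did C6 (7.93 and 7.74) or Hc, the gene of the fifth component (12.86 and 12.83). Of 26 tested complement genes 3 fell, 1 rose and 22 did not pass, with a median of −0.03 (0.00 against wild type 3). The riser was Cfp, which encodes properdin, the stabiliser of the alternative pathway convertase, at 8.14, 8.49 and 8.39 in the wild types and 9.50, 9.0 and 9.15 in the knockouts (0.88 ± 0.19, adjusted p = 0.0335, 0.83 against wild type 3). Leaving out any 1 of the 6 arrays ended that call, with differences from 0.74 to 0.98, as did the mean over both probe sets of Cfp (0.52, adjusted p = 0.075), of which the other differed by 0.16. In XY liver C8a differed by −2.33, C8b by −2.89 and C9 by −1.66. The fall of C8b was larger in XY than in XX liver (interaction 1.63, adjusted p = 0.00482), and the interaction did not pass for C8a (adjusted p = 0.253) or C9 (0.156).

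Of the growth hormone and IGF axis 1 of 22 tested genes rose and 0 fell, with a median of 0.24 (0.15 against wild type 3). Igfals encodes the acid-labile subunit that holds IGF1 in its circulating complex and is a known target of growth hormone in the liver. It read 9.52, 9.28 and 9.45 in the wild types and 10.60, 10.34 and 10.33 in the knockouts. The groups were tight and well apart, and Igfals rose 2.01-fold (1.01 ± 0.17, adjusted p = 0.0135), with 0.97 against wild type 3. Its call was narrowly lost without knockout 1 (0.92, adjusted p = 0.0555). Igf1 itself read 12.68, 12.76 and 12.96 against 12.95, 12.80 and 13.22 and did not pass (adjusted p = 0.431). Its groups overlapped, and the mean over its probe sets differed by −0.06 where the brightest differed by 0.19 ± 0.12 (0.03 against wild type 3).

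Upstream of these targets no change was called on the brightest probe set of a gene, though Cux2 passed with the mean over its probe sets. The receptor gene Ghr read 13.44, 13.23 and 13.06 against 12.75, 13.05 and 12.93 (−0.33 ± 0.12, adjusted p = 0.168, −0.15 against wild type 3). The other probe sets of Ghr disagreed, at 0.37 and −0.34 (0.32 and −0.31 against wild type 3). Socs2, a feedback inhibitor of the receptor, read 10.10, 11.03 and 9.95 against 10.35, 10.31 and 10.55, so that wild type 2 alone stood out and the sign of the difference (0.04 ± 0.25, 0.45 against wild type 3) turned with the array left out. Bcl6, the repressor of female-biased genes, read 7.82, 6.40 and 5.95 against 5.65, 5.76 and 5.96. Only wild types 1 and 2 were above the knockouts for Bcl6, and the difference was −0.93 ± 0.41 (adjusted p = 0.242) but −0.16 against wild type 3, −0.39 without wild type 1 and −0.28 with the 3′ to 5′ covariate. Cux2, a regulator made mainly in females, had probe sets that disagreed. The brightest differed by 0.03 ± 0.14 (0.30 against wild type 3) and the others by 0.92 and 1.05. The mean over all 3 was called in limma (0.66, adjusted p = 0.0368). The brightest averaged 7.58 in XX and 7.6 in XY wild types, so it showed no female bias. Onecut1, the gene of HNF6, read 7.11 in wild type and 7.95 in knockout on average with no call (adjusted p = 0.563, −0.13 against wild type 3).

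The gene of the missing hormone gave no check of the genotypes. Sst read 5.26, 5.44 and 5.57 in the wild types and 5.30, 5.27 and 5.34 in the knockouts, close to the array median throughout (−0.12 ± 0.11, adjusted p = 0.629, −0.27 against wild type 3). The labels do not say whether its probes lie within the deleted sequence. Of the 40 tested genes nearest to Sst on the same chromosome, 4 were called, Fetub, Clcn2 and Ap2m1 as raised and Il1rap as lowered, which is 10% beside 2.98% of all genes. Fetub, a secreted protease inhibitor of the liver, read 11.71, 11.68 and 11.74 in the wild types and 12.37, 12.38 and 12.32 in the knockouts. Both groups were tight and apart, and Fetub rose by 0.65 ± 0.09 (adjusted p = 0.009, 0.62 against wild type 3, 0.14 in XY liver). Il1rap, the accessory protein of the interleukin 1 receptor, read 11.65, 11.32 and 11.67 against 10.34, 10.57 and 9.92. It fell by 1.27 ± 0.19 (adjusted p = 0.00941, −1.39 against wild type 3, −1.0 in XY liver). Another of its probe sets differed by −0.83 and the other 3 by between −0.17 and 0.02, and the mean over all 5 was not called (−0.48, adjusted p = 0.113). Clcn2, a chloride channel gene, differed by 0.77 ± 0.15 in XX liver (0.52 against wild type 3) and −0.21 in XY liver, and Ap2m1, an endocytic adaptor gene, by 0.68 ± 0.13 (0.79 against wild type 3) and 0.15.

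Lgals9, Anxa6, Mlf2, Tle5, Lsm2 and Psmb7 rose in XX liver and were not called in XY liver. Lgals9, a galectin, read 9.32, 9.97 and 10.18 in the wild types and 11.63, 12.45 and 11.31 in the knockouts (1.97 ± 0.34, adjusted p = 0.0141, 1.62 against wild type 3). Anxa6, a calcium-dependent membrane-binding annexin, read 7.23, 6.96 and 7.62 against 9.46, 9.56 and 8.55 (1.92 ± 0.30, adjusted p = 0.0109, 1.57 against wild type 3). Mlf2 read 8.32, 7.55 and 8.43 against 10.32, 9.98 and 9.38 (1.79 ± 0.26, adjusted p = 0.00941, 1.46 against wild type 3). In each of these genes the wild types and the knockouts stood apart, wild type 3 was the highest wild type and knockout 3 the lowest knockout. The other probe sets of Anxa6 disagreed: 1 differed by 1.61 and the others by 0.06 and 0.00, and the mean over all 4 differed by 0.89 and was still called.

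Tle5, a corepressor of transcription, read 8.46, 8.48 and 9.07 in the wild types and 10.84, 10.74 and 9.55 in the knockouts (1.71 ± 0.30, adjusted p = 0.0141, 1.31 against wild type 3). Lsm2, part of the ring that binds the U6 RNA of the spliceosome, read 4.71, 4.68 and 5.18 against 6.64, 6.48 and 6.24, and since its wild types averaged below the array median the rise of 1.60 ± 0.23 (adjusted p = 0.00941, 1.27 against wild type 3) is a lower bound. Psmb7, a catalytic subunit of the proteasome, read 9.47, 9.70 and 10.03 against 11.64, 11.35 and 10.77 (1.52 ± 0.24, adjusted p = 0.0115, 1.23 against wild type 3). The order of the arrays was the same again, with wild type 3 and knockout 3 the nearest to each other. The call of Tle5 was lost without knockout 1 (1.48, adjusted p = 0.0555) or knockout 2 (1.53, adjusted p = 0.0515). In XY liver these 6 genes differed by 0.78 (Lgals9), 0.14 (Anxa6), −0.09 (Mlf2), 0.29 (Tle5), 0.25 (Lsm2) and 0.03 (Psmb7), none called. The interaction itself passed for Mlf2 (1.88, adjusted p = 0.0436) and did not for the other 5 (adjusted p from 0.0749 to 0.256).

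**Figure D5:**
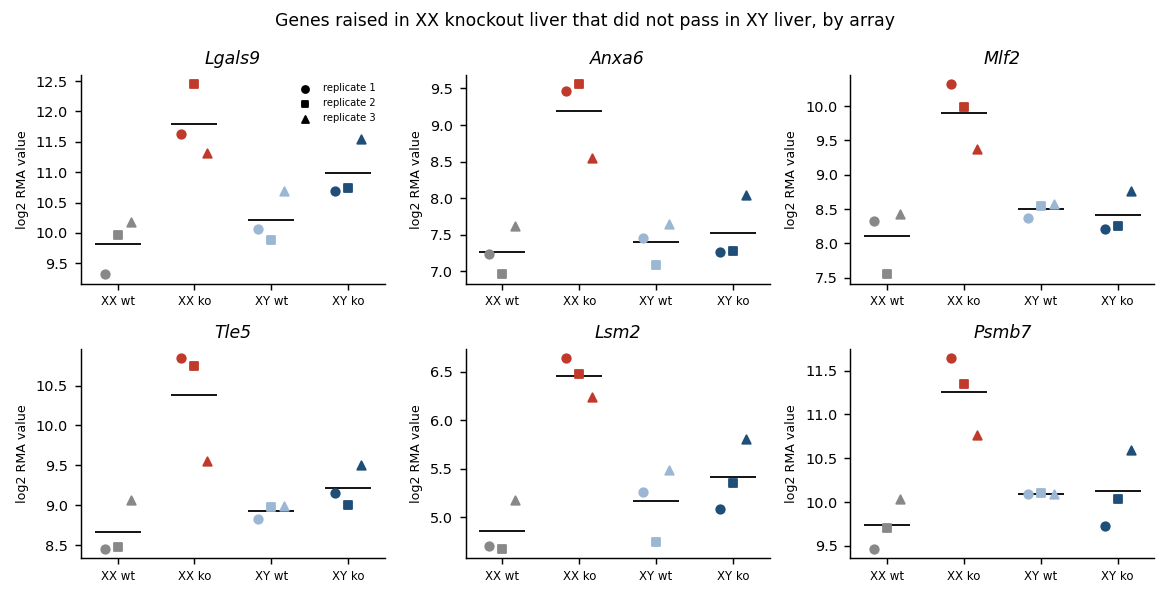
Log2 RMA values of 6 genes called as raised in XX knockout liver and not called in XY liver, on all 12 arrays, with shapes for replicates 1, 2 and 3 and a line at each group mean; the vertical axes differ between panels and do not start at 0. The XX knockouts lie above all other arrays in every panel but that of Lgals9, knockout 3 is the lowest XX knockout in each panel, and wild type 3 is the highest XX wild type in each.

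The order of arrays in these 6 genes was common among the raised genes. Knockout 3 was the lowest knockout for 175 of the 302 raised genes (57.9%, beside 28.5% of all tested genes), and wild types 1 and 2 both lay below wild type 3 for 121 of them (40.1%, beside 23.7%). Knockout 3 and wild types 1 and 2 are also the arrays with the larger 3′ to 5′ differences within their groups. With those differences as a covariate the rises were 1.52 for Lgals9, 1.62 for Anxa6, 1.58 for Mlf2, 1.25 for Tle5, 1.37 for Lsm2 and 1.15 for Psmb7. Of 11 Kupffer cell (liver macrophage) markers 0 passed in XX liver, 10 were higher in the knockouts (median 0.31, and 0.26 against wild type 3), and their mean level was 9.30 to 9.66 in the wild types and 9.73 to 10.15 in the knockouts. Knockout 2 was the lowest knockout for these markers. In XY liver their median was 0.87 and 3 rose. None of the 6 genes was called there, though Lgals9 differed by 0.78, and the interaction passed only for Mlf2. Mean levels of the 10 endothelial markers did not overlap between the XX groups either (8.32 to 8.46 and 8.58 to 8.68). Nor did those of the 10 perivenous hepatocyte markers (9.99 to 10.16 and 10.27 to 10.63) or of the lipoprotein genes (12.73 to 12.78 and 12.85 to 12.94). The female-biased, Cyp3, Cyp4 and xenobiotic response lists and the 1 tested adipose marker were also higher in the knockouts without overlap. The male-biased and cholesterol biosynthesis lists were lower without overlap. Such separation was thus not particular to cell markers, and 19.9% of all tested genes did not overlap singly. The remaining lists overlapped, such as the stellate cell markers (8.62 to 8.76 and 8.73 to 8.80). The part of Kupffer, endothelial or other cells in the rise of the 6 genes was not tested. In bulk liver a change in the number of cells of a type and a change in RNA per cell cannot be told apart. In XY liver 500 genes were called in all (4.11%). Of the 302 genes raised in XX liver, 24 also rose there, where 336 of all tested genes did (2.76%), and the median in XY liver was 0.10. Of the 60 lowered genes 11 also fell there, where 164 of all did (1.35%).

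Eci3, Ugt2b37 and Sult5a1, enzymes of fatty acid oxidation and of steroid and drug conjugation, also rose. Eci3, a peroxisomal isomerase of fatty acid oxidation, read 6.06, 7.26 and 7.05 in the wild types and 8.04, 9.47 and 9.23 in the knockouts. Replicate 1 was the lowest in both groups, and Eci3 rose 4.36-fold (2.12 ± 0.39, adjusted p = 0.0168, 1.86 against wild type 3), a call lost without wild type 1 (1.76, adjusted p = 0.0502) or knockout 2 (1.85, adjusted p = 0.0572). In XY liver Eci3 differed by 4.04, a lower bound since the XY wild types were dim, and the interaction did not pass (adjusted p = 0.127). Ugt2b37, which conjugates steroids and drugs with glucuronic acid, read 8.12, 5.72 and 7.24 against 9.79, 8.83 and 8.90 (2.15 ± 0.49, adjusted p = 0.0402, 1.94 against wild type 3). It was called without wild type 1 but not without any other XX array (1.5 to 2.32). Sult5a1, a sulfotransferase, read 7.31, 7.01 and 7.65 against 8.06, 8.38 and 8.61, without overlap (1.03 ± 0.17, adjusted p = 0.0135, 0.71 against wild type 3) and with −0.02 in XY liver. Of 12 tested glucuronosyltransferases 1 rose, of 10 sulfotransferases 1 rose, and no member of either list fell.

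Hadha, the alpha chain of the mitochondrial trifunctional protein, read 10.73, 10.13 and 10.36 against 11.52, 11.09 and 11.30 and rose by 0.89 ± 0.16 (adjusted p = 0.0147, 0.94 against wild type 3), though not without knockout 1 (0.78, adjusted p = 0.0596). Its partner Hadhb differed by −0.21 ± 0.16 with no call (−0.13 against wild type 3). Of 31 tested fatty acid oxidation genes Eci3 and Hadha rose and 29 did not pass, with a median of −0.02 (0.03 against wild type 3). Lcat, which esterifies cholesterol on high density lipoprotein, read 11.48, 11.49 and 12.16 against 12.77, 12.60 and 12.30 (0.85 ± 0.18, adjusted p = 0.0314), with only 0.40 against wild type 3. Its call was lost without wild type 1 or 2 or without knockout 1 or 2 (0.73 to 0.82), and with the 3′ to 5′ covariate Lcat differed by 0.48. Lrp1, an uptake receptor for lipoprotein remnants, read 10.10, 10.15 and 9.87 against 10.87, 11.21 and 10.75 (0.90 ± 0.16, adjusted p = 0.0162, 1.07 against wild type 3), and was not called without knockout 1 (0.94, adjusted p = 0.0503) or knockout 2 (0.77, adjusted p = 0.0552). Its other probe set differed by 0.24, and the mean of both was not called (0.57, adjusted p = 0.0788). These were the 2 called members of the 19 tested lipoprotein genes.

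Genes of cholesterol biosynthesis leaned to lower values without a call. Of 19 tested genes 0 passed, and 9 had an unadjusted p under 0.05 with lower values, as had 871 of all 12158 tested genes. In all 17 of the 19 were lower in the knockouts (89.5%, beside 48.7% of all tested genes). The median was −0.51, −0.39 against wild type 3 (where 14 were lower), and 0.02 in XY liver. Cyp51, which demethylates lanosterol, differed the most at −0.90 ± 0.26 (adjusted p = 0.0865, −1.01 against wild type 3). Idi1, which isomerises isopentenyl diphosphate, read 12.82, 12.18 and 12.51 in the wild types and 11.00, 11.99 and 12.05 in the knockouts, which did not overlap (−0.83 ± 0.28, adjusted p = 0.137, −0.83 against wild type 3). Hmgcs1, which makes the precursor of mevalonate, read 13.37, 13.48 and 12.65 against 11.76, 13.35 and 12.85, and the groups overlapped (−0.51 ± 0.40, 0.01 against wild type 3). Knockout 1 was the lowest array for both Idi1 and Hmgcs1.

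The other large falls belonged to no single list. Ociad2 read 8.89, 8.87 and 9.05 in the wild types and 7.32, 7.41 and 8.09 in the knockouts (−1.33 ± 0.20, adjusted p = 0.00941, −1.44 against wild type 3), with −1.54 on its second probe set and −1.58 in XY liver. Enpp3, an ectoenzyme that splits nucleotides, read 8.78, 9.54 and 8.74 against 7.21, 7.91 and 7.55 (−1.46 ± 0.31, adjusted p = 0.0308, −1.18 against wild type 3). The call of Enpp3 was kept only when wild type 3 was left out, and the other omissions gave −1.20 to −1.64. Of its other probe sets 2 differed by −1.22 and −1.13 and the 2 dim ones by 0.01 and −0.01, and the mean over all 5 was not called (−0.76, adjusted p = 0.0755). Ttll1, an enzyme that adds glutamates to tubulin, read 6.68, 6.43 and 6.65 against 5.54, 5.5 and 4.91 and fell by 1.27 ± 0.21 (adjusted p = 0.0133, −1.33 against wild type 3). This fall rests on 1 probe set. Its other probe sets, which averaged below the array median (4.23 and 3.88), differed by 0.06 and −0.02. In XY liver Ttll1 differed by 0.07, and the interaction did not pass (adjusted p = 0.0699).

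Tasor, Rrp36 and Xrn1 fell in XX liver and were not called in XY liver. Tasor, a subunit of the HUSH silencing complex, read 8.04, 7.74 and 7.69 against 6.38, 6.96 and 6.42 (−1.24 ± 0.18, adjusted p = 0.00941, −1.11 against wild type 3). Rrp36, a factor of ribosomal RNA maturation, read 8.18, 8.07 and 8.26 against 7.25, 7.40 and 6.73 (−1.04 ± 0.17, adjusted p = 0.0115, −1.14 against wild type 3). Both stood apart in all arrays, and both differed from XY liver, where the values were 0.07 and 0.18 (interaction −1.31 and −1.22, adjusted p = 0.0424 and 0.0416). Xrn1, a cytoplasmic exoribonuclease, read 7.10, 6.80 and 7.06 against 6.21, 6.11 and 5.67 (−0.99 ± 0.19, adjusted p = 0.0218, −1.06 against wild type 3), but its other probe set differed by 0.30 and the mean of both by −0.34 (adjusted p = 0.298). Its call was also lost without wild type 1 or 3 or knockout 2 (−0.93 to −1.04).

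The rule for naming also selected Dct, Gm6958 and single members of several lists. Dct, the dopachrome tautomerase of melanin synthesis, read 8.27, 8.91 and 9.09 in the wild types and 9.99, 10.47 and 10.80 in the knockouts and rose in both sexes (1.66 ± 0.26, adjusted p = 0.0115, in XX and 1.83 in XY liver, 1.33 against wild type 3), and was called whichever XX array was left out. Gm6958, a predicted gene, rose by 1.51 ± 0.35 (2.04 against wild type 3), and its call was lost without wild type 2 or 3 or without knockout 2 or 3 (1.24 to 1.48). Among single called members of a list, Serpina3n, an acute phase protease inhibitor, rose by 0.74 ± 0.14 (1 of 21 tested acute phase genes). Oasl2 (1.28 ± 0.24) was the 1 of 14 interferon response genes that rose, Gstm2, a glutathione transferase (1.02 ± 0.22), the 1 of 20 xenobiotic response genes, and Nags, which makes the activator of the urea cycle (0.75 ± 0.17), the 1 of 22 urea cycle and amino acid genes. Cyp4f15, a fatty acid hydroxylase (0.59 ± 0.12), was the 1 of 9 in the Cyp4 family, and Rhbg, an ammonium transporter of perivenous hepatocytes (0.79 ± 0.18), the 1 of 10 perivenous markers. Against wild type 3 these values were 0.81 for Serpina3n, 1.04 for Oasl2, 0.81 for Gstm2, 0.67 for Nags, 0.51 for Cyp4f15 and 0.83 for Rhbg. The call of Serpina3n was lost without wild type 1 or knockout 1 or 2 (0.66 to 0.69), that of Oasl2 without wild type 1 or 2 or knockout 2 (1.12 to 1.28), and that of Rhbg without any 1 XX array (0.74 to 0.83). Gstm2 (0.83 to 1.11) and Cyp4f15 (0.57 to 0.64) were called without wild type 3 but not without any other XX array, and Nags (0.63 to 0.80) without knockout 3 but not without any other.

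For a few called genes most of the difference came from wild types 1 and 2. 9030619P08Rik read 9.81, 9.67 and 11.01 in the wild types and 11.76, 11.94 and 11.45 in the knockouts, a difference of 1.55 ± 0.37 that was 0.70 against wild type 3. Id1, an inhibitor of DNA-binding factors, read 7.87, 7.54 and 8.75 against 9.39, 9.14 and 9.20 (1.19 ± 0.28, and 0.50 against wild type 3). Tecr, the reductase of fatty acid elongation, read 10.32, 10.61 and 11.41 against 11.82, 11.88 and 11.67 (1.01 ± 0.24, and 0.37). In all 3, as in 3000002C10Rik (1.10 ± 0.24, and 0.40), wild type 3 was closer to the knockouts than to wild types 1 and 2. Their calls were kept without wild type 3 but lost without any other XX array, at 0.77 to 1.69. With the 3′ to 5′ covariate the differences were 1.13, 0.85, 0.51 and 0.63 for 9030619P08Rik, Id1, Tecr and 3000002C10Rik. In XY liver they were 4.06, 1.09, 0.04 and −0.16 in the same order. Among the 362 called genes, the difference against wild type 3 was less than 1 part in 2 of the full difference for 8 raised genes and 1 lowered gene.

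Markers of other liver cells and lists with daily rhythm showed no call in XX liver. None of 10 endothelial, 10 stellate, 8 T and NK cell, 4 B cell, 3 neutrophil or 4 cholangiocyte markers passed, with medians of 0.25, 0.11, 0.05, −0.05, 0.88 and 0.37. Against wild type 3 these medians were 0.25, 0.16, −0.03, 0.02, 1.93 and 0.23, and 9 of the 10 endothelial markers were higher in the knockouts. The neutrophil genes S100a8 and S100a9 were bright on wild type 2 (7.68 and 7.73) and knockout 3 (8.06 and 9.05). None of 17 clock genes passed. Per2, a core clock repressor, read 8.71, 5.56 and 8.54 in the wild types and 9.09, 5.51 and 8.32 in the knockouts, so that replicate 2 of both groups stood apart from the others. Of 20 lipogenesis genes, 18 gluconeogenesis genes, 17 bile acid genes, 31 respiratory chain genes and 18 ribosomal protein genes, 0 passed, with medians of −0.16, −0.19, 0.24, 0.06 and 0.05 (−0.38, −0.05, −0.02, −0.05 and −0.02 against wild type 3). Actb, often used as a reference, read 13.05, 13.13 and 13.53 against 13.70, 13.71 and 12.66, with knockout 3 the lowest of all 6 XX arrays (0.12 ± 0.24, adjusted p = 0.841, −0.17 against wild type 3). Among 3327 tested probe sets that name no gene or several, adjusted among themselves, 13 were called (0.391%), all raised.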

How the data were processed

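Liver RNA of 12 mice was measured on 12 Affymetrix 3′ expression arrays. The authors deposited RMA values of each probe set (log2, per the submitters' processing notes), and these were used as they stood. Samples started from 100 mg of tissue, of which 250 ng of total RNA was labelled, per the labels' protocols. Columns were assigned to groups by their labels, and the series design states that the samples were separate mice. Of 45101 probe sets, 64 were controls, 34945 named 1 gene, 932 several and 9160 none. The 18193 genes were each represented by their brightest probe set on average, and a gene was tested when it exceeded the array median on at least 3 arrays (12158 genes). Gene symbols came from the array annotation and 99.4% of probe sets matched a RefSeq gene table (GRCm38.p6) by Entrez identifier, which also gave the order of genes near Sst. Promoter windows came from RefSeq on the same build, and were aligned with Biopython 1.88.

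Using limma 3.58.1 under R 4.3.3, a model of 4 group means was fitted to the 12 arrays (8 residual and 3.72 prior degrees of freedom), with contrasts for the knockout effect in XX and in XY liver and for their difference. The script was tested on simulated data. Tables were handled with data.table (version 1.17.8), and figures drawn with matplotlib 3.10.9 in Python 3.11.15. The number of arrays limits the precision.

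Genes were named by rule: the 12 largest rises and 12 largest falls that passed, did not overlap and were at least 1 log2 from wild type 3 in the same direction, up to 4 called members of each of 28 gene lists and 14 marker lists, the 6 called genes that differed most between both sets of controls, the 6 largest interactions, and 24 genes named in every case. Of those, Cyp3a41a and Gapdh had no probe set that names them alone. The part of the series, its lists and its named genes were chosen with earlier results of these data known. Fetub, Clcn2, Ap2m1, Pabpn1, Cyp17a1, Cyp7b1, Gstp1, C8g, C6, Hc, Hadhb, Onecut1, Cyp51, Idi1, Hmgcs1, Per2, S100a8 and S100a9 fell outside the rule and were chosen after their values were seen. Alternatives covered array weights, the variance prior, the filter, normalization, the mean over probe sets, a block for the replicate number, a 2-fold minimum, a 3′ to 5′ covariate, the 6 XX arrays alone, wild type 3 as the only control, and leaving out each array in turn.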

Additional observations from a re-analysis of the deposited data

Results flagged for a closer look

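The knockout effect in XX liver differed from that in XY liver, by the interaction test of the limma fit, for 100 genes. The value in each case is the effect in XX minus the effect in XY liver on the log2 scale. Of the 100, 49 were positive and 51 negative, 74 were called in XY liver alone, 18 in XX liver alone, 5 in both (2 with opposite signs) and 3 in neither. Among named genes, Cyp2b13 differed by −9.26, with a fall in XX and a rise in XY liver. Female-biased genes that rose in XY liver and were not called in XX liver gave −7.40 for Sult3a1, −7.26 for Cyp2b9, −7.04 for Slc22a26, −6.28 for Hao2 and −5.65 for Sult2a2. Of these, Sult3a1, Cyp2b9, Slc22a26 and Hao2 averaged below the array median in XY wild types, so their values are not exact. Male-biased genes that fell in XY liver and were not called in XX liver gave 6.65 for Cyp4a12a and 5.36 for Hsd3b5. These are not exact, since Cyp4a12a was dim in both XX groups and Hsd3b5 in the XX knockouts. Genes that fell in both gave 1.80 for Nox4, 1.63 for the complement chain C8b and 1.30 for Nudt7, with the smaller fall in XX liver. Genes called in XX liver alone gave 1.88 for Mlf2, which rose, and −1.31 for Tasor and −1.22 for Rrp36, which fell.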

How the results depend on the processing

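The count of genes called in XX liver was 362. It was 185 with the replicate number as a block, 222 with array weights, 69 with a 2-fold minimum, 1 with wild types 1 and 2 left out together, 0 with the 3′ to 5′ covariate and 0 with the 6 XX arrays alone, and 104 to 379 when 1 array was left out. The other alternatives (filter, probe set mean, median shift, quantile normalization, variance prior) gave 309 to 383, and with quantile normalization 77.4% of calls were rises in place of 83.4%. The interaction count of 100 was 66 with the replicate block, 153 with array weights, 59 with the covariate, 55 without wild types 1 and 2 together and 43 to 140 when 1 array was left out. What arrays of the same replicate number have in common was not tested. Same-numbered XX arrays had deviations that correlated at 0.08, 0.39 and −0.08 for replicates 1, 2 and 3. Only replicate 2 correlated best with its own number, and its arrays also stood apart for Per2 in both XX groups. Directions reversed only for genes that were not called, here with the range over single omitted arrays where it crossed 0: Sult3a1 (−0.57 to 0.04, the latter without knockout 1), Slc22a26 (−0.12 to 0.01, the latter without knockout 1, and 0.08 with the mean of probe sets), Cyp4a12a (−0.37 to 0.15, the latter without wild type 3), Hao2 (−0.18 without wild types 1 and 2), Igf1 (−0.06 with the mean of probe sets), Socs2 (−0.04 with the mean of probe sets, −0.16 to 0.38 over omissions, with −0.09, −0.16 and −0.03 without wild type 1, wild type 3 or knockout 3), Cyp2b10 (−0.20 with the covariate), Cux2 (−0.01 with quantile normalization and −0.11 to 0.15 over omissions, the former without wild type 3) and Actb (−0.26 with the covariate, −0.17 without wild types 1 and 2, −0.05 and −0.06 without knockout 1 or 2 and up to 0.47 without knockout 3). Array weights also ended the calls of Enpp3, Cyp4f15, C9, Gstm2, Nags, Lcat, Rhbg, 9030619P08Rik, Id1, 3000002C10Rik and Tecr, and quantile normalization those of Rhbg and 9030619P08Rik. With the replicate block the calls of Gm6958, Serpina4-ps1, Enpp3, Cyp4f15, Cfp, C9, Nags, Lcat, Rhbg, 9030619P08Rik, Id1 and Tecr were lost. The call of 9030619P08Rik was narrowly lost with the other variance prior and with the probe set mean too (limma, adjusted p = 0.0521 and 0.0503). The cause of these changes was not tested, except that fewer arrays enter the fits that leave arrays out. Signal over background limits the dim genes, for which no detection call was at hand.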
